A study of Rattus norvegicus with 6 samples.

Results

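Krüppel-like factors (KLFs) are transcription factors that bind DNA through 3 zinc fingers, and 10 of them, Klf2, Klf3, Klf4, Klf5, Klf6, Klf7, Klf10, Klf13, Klf15 and Klf16, were followed in rat brain after neonatal hypoxia-ischemia. The genes were taken by symbol from a count table of 19382 genes. All 10 had a row, and all 10 passed the filter on low counts, as 10 of 14959 genes tested. The 6 brain libraries were split evenly between rats with a control treatment and rats with hypoxic-ischemic injury (HI), 3 of each, the latter being SD (Sprague-Dawley) pups exposed to ischemia and hypoxia for 2.5 h at 7 days of age. Neither a brain region, the time from injury to sampling, the age of the controls nor any sham surgery is given in the labels, which also do not say whether each library came from its own animal, so the spread behind each p-value may in part be technical.

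KLFs recognise CACCC and GC-box sequences through their fingers, and the rest of the protein, which differs between members, recruits coactivators or corepressors. In vessels Klf2 and Klf4 are induced by flow and hold endothelial cells in a quiescent, anti-inflammatory state, and Klf4 is also expressed by astrocytes and myeloid cells. In neurons Klf6 and Klf7 favour axon growth, whereas Klf4 and Klf9 restrain it. Klf10 is an early response gene of TGF-beta, Klf15 is induced by glucocorticoids, and Klf3, Klf13 and Klf16 are mainly known as repressors.

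The stretches upstream of Klf6 and Klf7 are shown because the ratio of these closely related genes, given further on, was higher in every HI library, and because the binding letters of the family can be marked in them. Sequences are from RefSeq on assembly GRCr8, each read on the strand of its gene, and only bases outside the span of the gene are printed, 250 before the start of Klf6 (chr17:69458479-69458728, minus strand) and 139 for Klf7 (chr9:73020168-73020306, minus strand). Capitals mark CACCC and the GC box GGGCGG on either strand, the former appearing as GGGTG when it lies on the other strand.
Klf6: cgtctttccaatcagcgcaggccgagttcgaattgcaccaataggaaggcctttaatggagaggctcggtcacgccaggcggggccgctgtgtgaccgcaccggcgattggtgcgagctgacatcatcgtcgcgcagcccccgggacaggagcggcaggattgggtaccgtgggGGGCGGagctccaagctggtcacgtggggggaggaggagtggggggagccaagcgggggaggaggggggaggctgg
Klf7: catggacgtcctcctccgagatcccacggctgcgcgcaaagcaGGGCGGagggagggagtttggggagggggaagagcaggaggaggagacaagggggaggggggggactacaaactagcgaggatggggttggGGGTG
The Klf6 stretch held 1 GC box and 0 CACCC, against 30.5% and 49.2% of all 33469 listed promoters with at least 1 over the same 250 bases. In the Klf7 stretch there was 1 of each. The last part of the 250 bases listed before the Klf7 start lies inside the gene span, so only the first 139 are printed. Of all listed promoters 15.0% (GC box) and 31.2% (CACCC) held at least 1 in the first 139 of their 250 bases. Those bases reach the gene span for Klf7 but need not for the others, so the comparison is loose. Klf3, Klf4, Klf5 and Klf15 also have an entry in the promoter table, and Klf2, Klf10, Klf13 and Klf16 do not.

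Libraries held 13922663 to 14927469 estimated reads, at which a count of 0 allows a level of up to 3 reads, or 0.182 to 0.227 CPM (reads after scaling for library size and, by TMM, for library composition). Neuron and astrocyte markers were abundant in every library, with list sums of 1371 to 5290 CPM for 8 neuron genes. The 8 astrocyte genes summed to 1313 to 2136 CPM in controls and 3259 to 4862 CPM in HI. By edgeR (adjusted p below 0.05) 2 of these 8 rose, Gfap and Aqp4, where 6.83% of all tested genes did. Several libraries stood apart in tissue makeup. Control 3 held 94.4 CPM of 6 dorsal telencephalon genes, against 683 and 766 in controls 1 and 2 and 26.5 to 63.7 in HI. Choroid plexus genes, 7 in number and including Ttr, summed to 2104 CPM in control 2, 7890 in HI 2 and 14908 in HI 3, against 13.6, 5.60 and 175 in control 1, control 3 and HI 1. Microglia genes, 9 in number, summed to 129 to 182 CPM in controls and 277 to 449 in HI. Of the 9, 7 rose, where 6.83% of all genes did, and P2ry12 and Tmem119 did not pass, P2ry12 being slightly lower in HI on average. Of 8 neuron genes 4 fell, where 7.04% of all genes did. The other 4 did not pass, Syt1 and Slc17a7 being lower in HI on average and Gad1 and Gad2 higher. The neuron sum was 4171 to 5290 CPM in controls and 1371 to 2735 in HI. Endothelial genes, 10 in number, summed to 318 to 425 CPM in controls and to 295, 534 and 691 in HI 1, 2 and 3. Their changes were uneven, since Slco1c1, a transporter of the blood-brain barrier, read 39.7 CPM in HI 1 and 95.01 to 128 CPM in controls, while Cdh5, Pecam1 and Tek were above every control in HI 1. Mural cell genes, 6 in number, summed to 55.6 to 74.9 CPM in controls and to 132, 285 and 434 in HI 1, 2 and 3. Of these 6 genes 3 rose (6.83% of all genes did), Tagln, Acta2 and Myh11. Blood leukocyte genes had at most 12 reads in any library. In bulk tissue fewer cells of a type and less RNA per cell cannot be told apart.

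**Figure D1:**
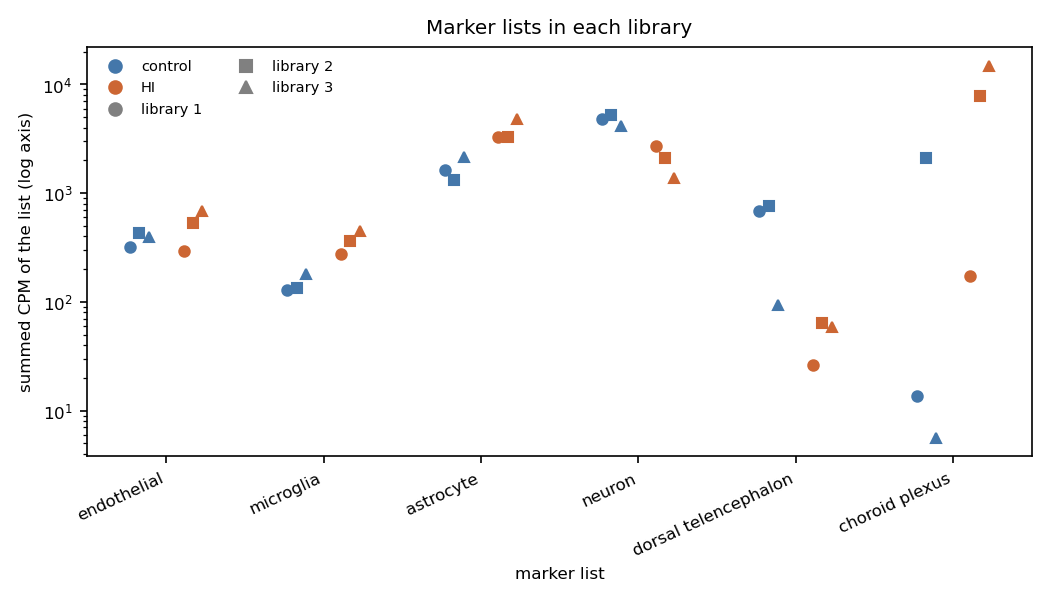
Summed CPM (log axis) of 6 marker lists in each library, with controls in blue, HI in orange and the marker shape giving the library number. Dorsal telencephalon genes of control 3 lie at 94.4 CPM, far below controls 1 and 2, and choroid plexus genes are high in control 2, HI 2 and HI 3.

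Control and HI libraries form the only contrast, and changes are given as HI against control. Brain region, age of the controls and time of sampling are not given, and tissue makeup differed between libraries. Their part in the changes, beside that of the injury, was not tested. Klf4 rose 2.56-fold, and Klf16, Klf13 and Klf7 fell to 0.468, 0.378 and 0.480 of the control level. The other 6 genes did not pass the test. Thus 1 of 10 rose, where 6.83% of all tested genes did, and 3 of 10 fell, where 7.04% did (adjusted p below 0.05 over 14959 genes, from the quasi-likelihood test of edgeR). In either direction 4 of 10 were called, against a background of 13.9%, and an unadjusted edgeR p below 0.05 was found for 5 of 10, against 36.5%. Groups did not overlap for 5 of 10, against 42.3%, with HI higher for 2 (background 21.5%) and lower for 3 (background 20.8%). The median log2 fold change of the 10 genes was -0.03 and that of all genes 0.04.

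**Figure D2:**
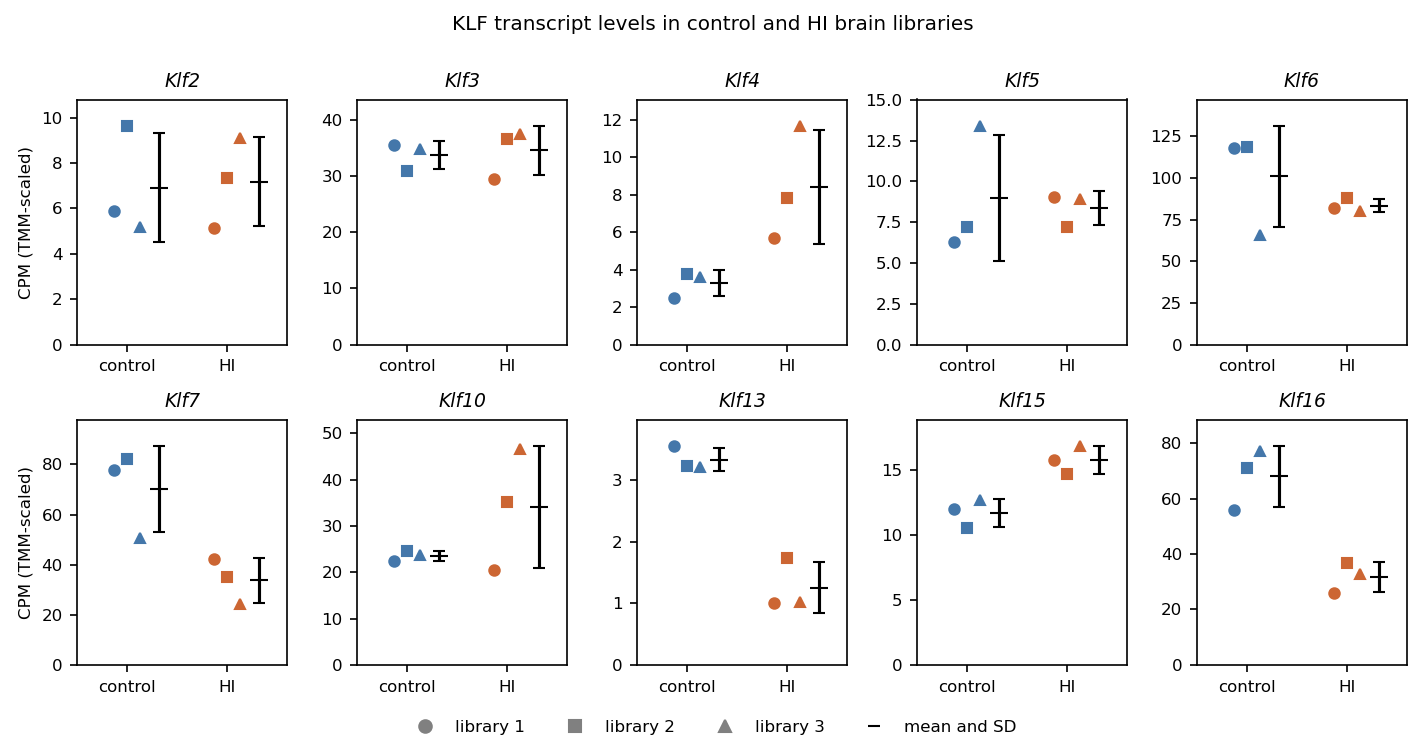
CPM of each KLF gene (vertical axes from 0, a scale per gene) in 3 control (blue) and 3 HI (orange) libraries, marker shape giving the library number and the bar the mean and SD of the group. Klf4 and Klf15 of HI lie above all controls, Klf7, Klf13 and Klf16 of HI lie below them, and the other 5 genes overlap.

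Klf4, which has roles in endothelium, astrocytes and myeloid cells, stood at 2.50, 3.75 and 3.59 CPM in controls 1, 2 and 3 and at 5.68, 7.84 and 11.7 CPM in HI 1, 2 and 3. Every HI library lay above every control, HI 3 was highest, and the HI libraries differed among themselves by more than the controls did. The means were 3.28 ± 0.68 and 8.41 ± 3.04 CPM (SD, n = 3 per group), and the fit gave 1.35 ± 0.34 on the log2 scale (SE, 95% interval 0.55 to 2.16, edgeR adjusted p = 0.0456). These levels rest on 33 to 51 reads in a control and 85 to 193 in HI. Klf4 lay close to the threshold and did not pass by limma-voom (adjusted p = 0.0664) or without a filter (edgeR adjusted p = 0.0512), and DESeq2 called it (adjusted p = 0.00435).

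Klf2, the shear-stress factor of endothelium that shares many targets with Klf4, showed overlapping groups. Its levels were 5.91, 9.65 and 5.17 CPM in controls 1, 2 and 3, and the HI libraries read 5.15, 7.33 and 9.09 CPM. In each group the library with the lowest choroid plexus sum was also the one with the lowest Klf2. Endothelial, mural and microglia sums were lowest in HI 1 among the HI libraries as well. The part of choroid plexus content in the level of Klf2 was not tested. The log2 fold change was 0.06 ± 0.33, with an interval from -0.73 to 0.85 that leaves room for a change of either sign (edgeR adjusted p = 0.914). Within a library, where scaling cancels, the log2 ratio of Klf2 to Klf4 reads was 1.23, 1.35 and 0.52 in controls 1, 2 and 3 and stood at -0.14, -0.10 and -0.36 in HI. All HI ratios lay below all control ratios, and the group means differed by -1.23 (exact permutation test, two-sided, p = 0.1, the smallest that 3 against 3 libraries allow, 0.15 after adjustment over 12 ratios). This difference takes in the rise of Klf4, a log2 fold change of 1.35, beside the 0.06 of Klf2. A ratio of reads also depends on transcript length, so only its difference between groups is read.

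Against cell type markers, the log2 ratio of Klf4 to the mean of 10 endothelial genes was -3.20, -3.05 and -3.03 in controls and -2.13, -2.53 and -2.28 in HI, higher in all HI libraries by 0.78 (exact permutation p = 0.1, adjusted 0.15). Against 9 microglia genes the ratio of Klf4 overlapped between groups, with means of -1.82 ± 0.32 and -1.81 ± 0.23 (exact permutation p = 0.9). These 9 genes changed unevenly, from -0.13 for P2ry12 to 2.45 for C1qa on the log2 scale. The 10 endothelial genes did too, from -0.66 for Slco1c1 to 1.28 for Pecam1. Ratios to either list therefore depend on the genes listed. Klf2 relative to endothelial genes had means of -2.06 ± 0.41 and -2.51 ± 0.21 with overlapping groups (exact permutation p = 0.2, adjusted 0.267). Klf2 relative to microglia genes was lower in every HI library, with a difference of -1.22 (exact permutation p = 0.1, adjusted 0.15). Mural sums took the same order across the HI libraries as Klf4, lowest in HI 1 and highest in HI 3, and no ratio to them was formed. Astrocyte sums were also higher in every HI library than in any control, and no ratio of Klf4 to them was formed. The part of microglia, endothelial, mural and astrocyte content in the levels of Klf4 and Klf2 was not tested beyond these ratios.

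Around Klf2 and Klf4, 4 of 11 genes of the upstream pathway fell, against 7.04% of all genes, and the median log2 fold change was -0.21. These were the transcription factors Mef2a, Mef2c and Mef2d, through which ERK5 induces Klf2 and Klf4, and Ccm2, a scaffold of the cerebral cavernous malformation complex that restrains this pathway. Mef2a stood at 237, 217 and 188 CPM in controls and at 94.1, 113 and 102 CPM in HI (log2 fold change -1.05 ± 0.13, edgeR adjusted p = 0.0207). Mef2d changed by -0.68 ± 0.14 and Ccm2 by -0.45 ± 0.10 on the log2 scale. Mef2c, which is abundant in cortical neurons, read 1367, 1691 and 369 CPM in controls 1, 2 and 3 and 104 to 133 CPM in HI, so control 3 was low here as for the dorsal telencephalon genes.

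Klf7, which supports axon growth and the survival of sensory neurons, stood at 77.8, 82.3 and 50.8 CPM in controls 1, 2 and 3, and the HI libraries read 42.1, 35.0 and 24.1 CPM. All HI libraries lay below all controls, and control 3 was the lowest control. The means of 70.3 ± 17.1 and 33.8 ± 9.07 CPM gave a log2 fold change of -1.06 ± 0.26 (95% interval -1.69 to -0.43, edgeR adjusted p = 0.0459). It did not pass with upper-quartile factors (edgeR adjusted p = 0.0518) or by limma-voom (adjusted p = 0.0547). Libraries with less Klf7 also had lower neuron marker sums within the HI group, 2735, 2110 and 1371 CPM in HI 1, 2 and 3, and their part in the fall was not tested.

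Klf6, a growth-promoting relative of Klf7 that is also induced by injury in many tissues, read 118, 119 and 66.0 CPM in controls and 82.2, 87.7 and 80.0 CPM in HI. Control 3 lay below every HI library, and controls 1 and 2 above. The coefficient of variation was 4.75% in HI and 30.0% in controls. The log2 fold change was -0.28 ± 0.23 and did not pass (edgeR adjusted p = 0.410), but without control 3 it was -0.54 and passed (edgeR adjusted p = 0.0345). The log2 ratio of Klf6 to Klf7 was 0.60, 0.53 and 0.38 in controls 1, 2 and 3 and 0.96, 1.32 and 1.73 in HI, higher in all HI libraries by 0.84 (exact permutation p = 0.1, adjusted 0.15). This ratio takes in the fall of Klf7, a log2 fold change of -1.06, beside the -0.28 of Klf6. Control 3 was low for both genes of this pair and did not stand out in their ratio. Relative to the 9 microglia genes, of which 7 rose, Klf6 was lower in every HI library, with a difference of -1.52 (exact permutation p = 0.1, adjusted 0.15).

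Klf4, which restrains axon growth, and Klf7, which favours it, moved in opposite directions. Their log2 ratio was -4.94, -4.44 and -3.81 in controls and -2.88, -2.15 and -1.04 in HI. It was 2.37 higher in HI with no overlap (exact permutation p = 0.1, adjusted 0.15). As each gene had groups apart, in opposite directions, the ratio had to separate. It restates the rise of Klf4 and the fall of Klf7 and is no separate result. Of 5 genes on which Klf6 and Klf7 are known to act 1 rose, where 6.83% of all tested genes did, and 4 did not pass, with a median of 0.23. That gene was Cdkn1a, the cell cycle inhibitor p21, which went from 13.1, 9.13 and 9.36 CPM to 24.8, 42.9 and 53.7 CPM (log2 fold change 1.94 ± 0.31, edgeR adjusted p = 0.0234). The axonal genes L1cam and Gap43 of this list, chosen with their values in view, were lower in HI on average and did not pass by edgeR. L1cam, an adhesion molecule of growing axons, read 921, 909 and 772 CPM in controls and 608, 498 and 319 CPM in HI, with no overlap (-0.87 ± 0.24, edgeR adjusted p = 0.0584). Gap43, a growth cone protein, had -0.80 ± 0.30 (edgeR adjusted p = 0.110) with overlapping groups. DESeq2 called 3 of the 5 genes, against 28.1% of all genes.

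Klf16, a repressor of the group that recruits the SIN3A corepressor, had the smallest p of the 10 genes. It read 55.9, 71.1 and 77.0 CPM in controls and 26.0, 36.8 and 32.7 CPM in HI. The groups lay well apart, the highest HI library at 36.8 CPM and the lowest control at 55.9 CPM. The log2 fold change was -1.10 ± 0.18 (95% interval -1.53 to -0.67, edgeR adjusted p = 0.0236). Klf16 was also called by DESeq2 (adjusted p = 1.96e-06) and limma-voom (adjusted p = 0.0318). Neuron marker sums were lower in HI as well, at 1371 to 2735 CPM against 4171 to 5290 CPM in controls. Within HI, Klf16 was lowest in HI 1, where the neuron sum was highest. The part of neuron content in the fall of Klf16 was not tested.

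Klf13, a repressor of the same group, was low in these counts, with 47, 44 and 43 reads in controls and 15, 27 and 17 in HI. That made 3.56, 3.24 and 3.22 CPM in controls and 1.003, 1.74 and 1.03 CPM in HI, with no overlap. The log2 fold change was -1.40 ± 0.32 (95% interval -2.18 to -0.63, edgeR adjusted p = 0.0391). Klf13 passed in none of the 6 fits with a library left out (edgeR adjusted p from 0.0523 to 0.125) nor with the replicate number as a block (edgeR adjusted p = 0.0696). Counting error alone is 15.0% of the level in a control and 22.5% in HI, and the control libraries differed by less than that (coefficient of variation 5.71%). The log2 ratio of Klf13 to Klf16 overlapped between groups, with a difference of -0.34 (exact permutation p = 0.3, adjusted 0.36). As for Klf16, the part of neuron content in the fall of Klf13 was not tested.

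Among the cofactors of the family, 10 corepressors, deacetylases and acetyltransferases, 1 fell, near the 7.04% of all genes that did, and 9 did not pass, with a median of 0.14. The gene that fell was Hdac2, a histone deacetylase of the SIN3 complex, which read 202, 214 and 168 CPM in controls and 133, 135 and 134 CPM in HI (log2 fold change -0.54 ± 0.11, edgeR adjusted p = 0.0342). Among 4 ubiquitin ligases that act on KLF proteins 1 fell (7.04% of all genes did), Fbxw7, from 133, 148 and 86.9 CPM to 46.7, 59.7 and 44.7 CPM (-1.28 ± 0.22, edgeR adjusted p = 0.0249). Fbxw7 marks Klf2 and Klf5 for degradation, and like Klf7 it was lowest among the controls in control 3.

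Klf10, the TGF-beta-inducible early gene, was even across the controls at 22.5, 24.5 and 23.7 CPM and uneven in HI at 20.4, 35.3 and 46.7 CPM. HI 1 lay below all controls and HI 2 and HI 3 above them. The log2 fold change was 0.53 ± 0.29 and did not pass (edgeR adjusted p = 0.222), and without HI 1 it was 0.79 and passed (edgeR adjusted p = 0.0240). HI 2 and HI 3 are also the HI libraries with high choroid plexus sums and with endothelial sums above the controls, and their part in this was not tested. Of 9 ligands, receptors and SMAD proteins of the TGF-beta pathway 1 rose, near the 6.83% of all genes that did, and 8 did not pass, with a median of 0.18. Tgfb1, the ligand, had a log2 fold change of 1.46 ± 0.35, with 5.68, 5.37 and 8.31 CPM in controls and 10.1, 19.9 and 23.2 CPM in HI (edgeR adjusted p = 0.0431). The log2 ratio of Klf10 to Klf13 was higher in all HI libraries, by 1.89 (exact permutation p = 0.1, adjusted 0.15). It takes in the fall of Klf13, a log2 fold change of -1.40, beside the 0.53 of Klf10.

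Klf15, a regulator of amino acid and glucose metabolism that is enriched in astrocytes in the brain, read 11.97, 10.5 and 12.7 CPM in controls and 15.8, 14.7 and 16.8 CPM in HI. All HI libraries lay above all controls, but the log2 fold change of 0.43 ± 0.15 (95% interval 0.07 to 0.79) did not pass (edgeR adjusted p = 0.0931, unadjusted p = 0.0255). Of 15 other settings it passed only with scaling by total counts (0.62, edgeR adjusted p = 0.0454), which moved the median of all genes by 0.19. Relative to 8 astrocyte genes the log2 ratio of Klf15 overlapped between groups (-3.47 ± 0.28 and -3.64 ± 0.20, exact permutation p = 0.6, adjusted 0.655). That list was uneven, from -1.45 for Slc1a2 to 3.45 for Gfap on the log2 scale, and the ratio depends on the genes in it. The glucocorticoid receptor list of 7 genes, with a median of -0.30, includes the receptors Nr3c1 and Nr3c2 and classical targets. Of the 7, 0 were called by edgeR or limma-voom, against 13.9% and 9.17% of all genes. DESeq2 called 2, against 28.1% of all genes. An unadjusted edgeR p below 0.05 was found for 3, against 36.5%. Nr3c2, the mineralocorticoid receptor, and Zbtb16, a hormone-induced zinc-finger gene, had the smallest p, with log2 fold changes of -0.87 ± 0.27 and -1.11 ± 0.36 (edgeR adjusted p = 0.0722 and 0.0808). Of 4 tested metabolic targets of Klf15 1 rose, where 6.83% of all genes did. This was Prodh, the proline dehydrogenase, from 13.9, 12.96 and 15.9 CPM to 26.4, 26.0 and 46.0 CPM (1.20 ± 0.26, edgeR adjusted p = 0.0342).

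Klf3, which represses through the corepressor CtBP, differed little between libraries. It read 35.5, 30.9 and 34.9 CPM in controls and 29.6, 36.6 and 37.6 CPM in HI, and its log2 fold change was 0.03 ± 0.13 with an interval from -0.29 to 0.36 (edgeR adjusted p = 0.874). Klf3 relative to Klf7 was higher in all HI libraries, by 1.09 on the log2 scale (exact permutation p = 0.1, adjusted 0.15). As Klf3 itself hardly changed, this restates the fall of Klf7 and is no separate result on Klf3. Klf5, an activator of proliferation in epithelia and smooth muscle, read 6.29, 7.22 and 13.4 CPM in controls and 9.03, 7.20 and 8.91 CPM in HI. Its control 3 was the highest of the 6 libraries, in contrast to Klf6 and Klf7, and the log2 fold change of -0.10 ± 0.32 turned to 0.28 without control 3. Neither value passed (edgeR adjusted p = 0.845 and 0.416).

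In the rest of the KLF and SP family, which shares the zinc fingers, 1 of 14 tested genes fell, close to the 7.04% of all genes, and 13 did not pass, with a median of -0.02. This was Klf9, a thyroid hormone and glucocorticoid target, at 49.8, 45.4 and 46.9 CPM in controls and 11.6, 15.6 and 16.7 CPM in HI (log2 fold change -1.69 ± 0.16, edgeR adjusted p = 0.0196).

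**Figure D3:**
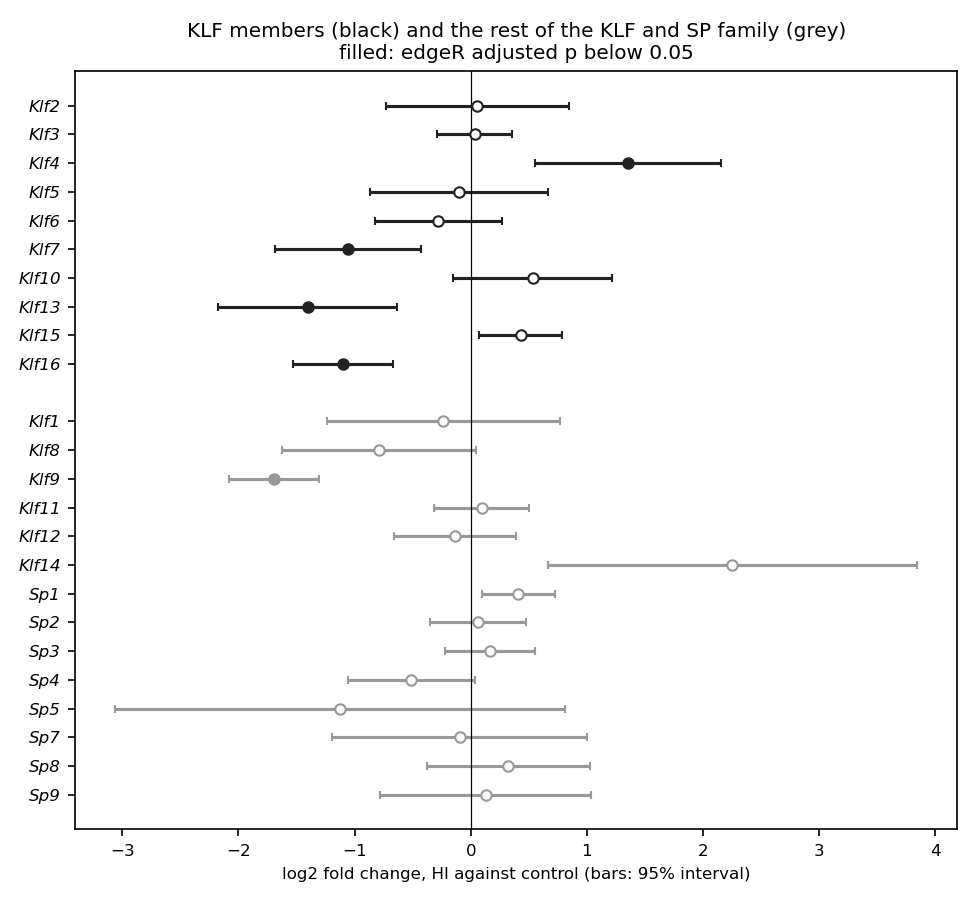
Log2 fold change, HI against control, with 95% interval for the 10 KLF genes (black) and 14 other tested KLF and SP genes (grey), filled where the edgeR adjusted p was below 0.05. Filled points are Klf4 to the right of 0 and Klf7, Klf13, Klf16 and Klf9 to the left.

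**Figure D4:**
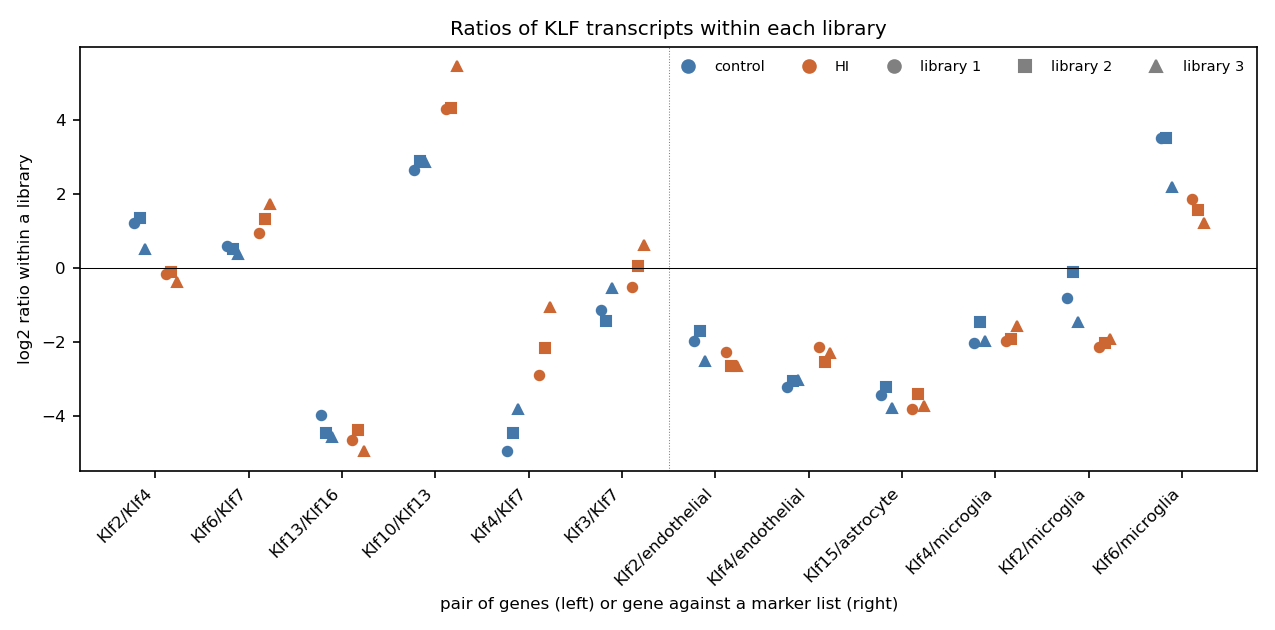
Log2 ratio within each library for 6 pairs of KLF genes and for Klf2, Klf4, Klf6 or Klf15 against a marker list (6 ratios). Controls are in blue, HI in orange, and the marker shape gives the library number. The groups are apart for Klf2/Klf4, Klf6/Klf7, Klf10/Klf13, Klf4/Klf7, Klf3/Klf7, Klf4/endothelial, Klf2/microglia and Klf6/microglia.

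Which genes passed changed with the libraries included, for all genes as for these 10. By edgeR, 0 of the 10 genes passed without control 1, without control 2, without HI 2 or without HI 3. Among all genes 0, 1, 0 and 644 passed in these fits. An unadjusted edgeR p below 0.05 was found for 4, 4, 5 and 4 of the 10. Among all genes it was found for 3962 of 15321, 4008 of 15322, 4175 of 15151 and 4220 of 15079. Without control 3, Klf7, Klf16 and Klf6 fell and Klf4 and Klf13 did not pass (edgeR adjusted p = 0.0782 and 0.0641). In that fit 1086 of all 15335 genes tested fell. Without HI 1, Klf4 and Klf10 rose, Klf7 and Klf16 fell and Klf13 did not pass (edgeR adjusted p = 0.0523). Of all 15265 genes tested in that fit 2097 rose and 1592 fell. Over the 6 fits the log2 fold change ran from 1.04 to 1.57 for Klf4, from -1.28 to -0.87 for Klf7, from -1.71 to -1.27 for Klf13 and from -1.25 to -0.98 for Klf16. DESeq2 called the 4 genes that edgeR called, against 28.1% of all genes, and limma-voom called Klf13 and Klf16 alone, against 9.17%.

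**Figure D5:**
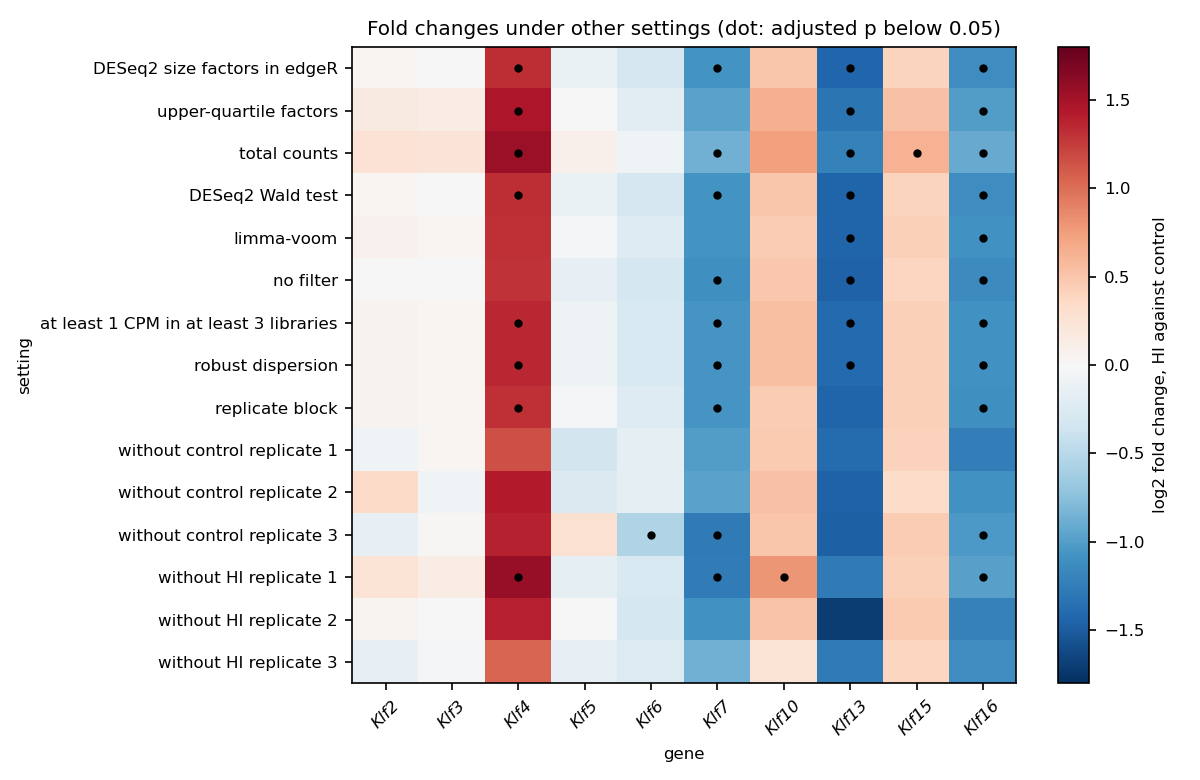
Log2 fold change of each KLF gene (colour) under 15 other settings (rows), with a dot where the adjusted p was below 0.05. Klf16 has a dot in 11 rows, Klf7 in 9, Klf4 and Klf13 in 8, and Klf6, Klf10 and Klf15 in 1 each.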

How the data were processed

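The deposited table holds estimated counts per gene, unscaled per the file headers; 2410 of 19382 genes have entries that are not whole (tolerance 1e-09), and none of the 10 KLF genes is among them. The tools named in the submitters' processing notes are StringTie 2.2.1, SAMtools 1.10 and HISAT2 2.1.0, with assembly Rnor 6.0. How reads were counted, by which strand and with what rule for shared reads, is not given in the sources used here, so reads of overlapping or antisense genes cannot be told apart. A reference gene table of GRCr8 lists 1 pseudogene of Klf4 and 2 of Klf5, with 0 rows in the counts. Columns were matched to samples by name. The column of control 1 lacks a letter of its title.

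Counts were rounded, filtered with filterByExpr (minimum count 10), scaled by TMM and tested in R 4.3.3 with edgeR 4.0.16 (glmQLFit and glmQLFTest) and limma 3.58.1, group being the only term, with Benjamini-Hochberg adjustment over 14959 genes. The SE was derived from F. DESeq2 1.42.0 and limma-voom were alternatives, with other scalings, filters, a robust dispersion, a replicate block and each library left out. Ratios used reads plus 0.5, and 12 were compared by exact permutation. Libraries differed by at least 13.4 in chi-square per degree of freedom, so none was counted as a duplicate. Reads are not independent molecules, and limits from counts cover counting error only. The members and lists were chosen with earlier results of these data known. Named in the text are all members and, from each list, up to 4 genes that passed or otherwise up to 2, by smallest p. Of all list genes 1 was matched by an older symbol and 1 had no row. The list of endothelial targets of Klf2 and Klf4 is not reported here.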

Additional observations from a re-analysis of the deposited data

How the results depend on the processing

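The count of KLF genes higher in HI, 1 in the main test, was 2 with total counts, 0 by limma-voom and 0 without a filter, and 0 to 2 with a library left out. The count lower in HI, 3, was 0 to 3 with a library left out. Over all genes 2074 were called, 4200 by DESeq2, 1371 by limma-voom and 0 to 3689 with a library left out. Calls split into 1021 higher and 1053 lower, into 1446 and 804 when scaled by upper quartiles and into 2161 and 730 when scaled by total counts. Signs turned only for genes and ratios near 0. With a library left out the log2 fold change of Klf2 ran from -0.15 to 0.34, that of Klf3 from -0.057 to 0.13 and that of Klf5 from -0.33 to 0.28. Klf3 had -0.012 without a filter, and Klf5 had 0.0031 with upper-quartile scaling and 0.087 with total counts. The ratio of Klf4 to microglia genes (0.0090) was -0.011 with a prior count of 2, and -0.12 to 0.19 with a library left out. The cause of these changes was not tested. Deviations from the group means correlated at 0.25, 0.06 and -0.13 between control and HI libraries of the same number. For unlike numbers the correlations ran from -0.31 to 0.30. With 3 libraries per group these values cannot tell whether libraries were paired. With the replicate number as a block 1 KLF gene was higher, 2 were lower and 1723 genes were called in all, Klf13 not passing (edgeR adjusted p = 0.0696). At this depth Klf4 and Klf13, with at most 51 and 47 reads in a control, had the largest counting error of the 10 genes among the controls.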

Other observations

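Other genes of the family, chosen after their values were seen, also had groups that did not overlap without passing the test. Groups apart were common, at 42.3% of all tested genes, with HI higher for 21.5%. Klf14, an imprinted relative of Klf16, had 13, 1 and 10 reads in controls 1, 2 and 3 and 44, 46 and 46 reads in the HI libraries, a log2 fold change of 2.25 ± 0.66 (edgeR adjusted p = 0.0646). Control 2 stood below the limit of 3 reads, so the size of that change is uncertain. Sp1, the ubiquitous GC-box factor, read 37.9, 36.1 and 39.5 CPM in controls and 43.1, 50.4 and 57.2 CPM in HI (0.41 ± 0.13, edgeR adjusted p = 0.0787).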
